A study of Mus musculus with 20 samples.

Results

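The genes described here carry the calcium cycle of the heartbeat: *Cacna1c*, *Ryr2*, *Casq2*, *Atp2a2*, *Pln* and *Slc8a1*, 6 of the 22367 protein-coding genes in the annotation of NCBIM37 (mm9). They were chosen by name, and for each the gene body with 2 kb on each side (its window) was set against the positions of 5fC peaks in every library, by tissue and genotype. Because these genes were proposed with their peak coverage known, their coverage is given as a description and carries no test. Tests are kept for where the peaks lie inside each window, which the choice did not use.

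5-formylcytosine (5fC) is a step in the removal of DNA methylation: TET enzymes oxidise 5-methylcytosine to 5fC and further, and the thymine DNA glycosylase TDG cuts 5fC out. The study mapped 5fC by chemical pull-down and sequencing in tissues of E11.5 mouse embryos, and the deposited values are peak positions, called in each library on its own. *Tdg* null embryos carried on both alleles a neomycin resistance cassette in place of the part of *Tdg* that encodes the enzyme's active domain. They were bred by crossing heterozygous parents, with WT embryos from the same litters. Hindbrain was taken from 4 WT and 4 *Tdg* null embryos, 1 of each genotype from litters A, O, Q and Z. Heart, liver and carcass (the rest of the embryo) were taken from 2 WT and 2 *Tdg* null embryos, so that these 3 tissues came from the same embryos. They are set here in pair_a and pair_b, with 1 embryo of each genotype in each. The sample titles name each embryo but not its partner of the other genotype, so this match is assumed. The labels do not settle whether pair_a and pair_b are separate litters or pairs of embryos within 1 litter, and they are counted here as 2 litters. None of them shares a litter with a hindbrain, and between hindbrain and the other tissues, tissue and litter cannot be told apart. The *Tdg* null liver of pair_b, left out by the study for poor quality, had 228 peaks in the whole genome and is given apart, which leaves 19 libraries. The *Tdg* null libraries held 101344 to 254319 peaks over 2.68% to 8.09% of the ungapped genome, and the 10 WT libraries 1563 to 42012 peaks over 0.0349% to 0.939%. The sequencing depth cannot be read from peak positions, so that an absent peak says that 5fC was not detectable there at an unknown depth. Peaks of genomic DNA check neither the dissected tissue by its transcripts nor the deletion in *Tdg*.

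In a heart muscle cell the action potential opens the L-type calcium channel in the surface membrane, and the calcium that enters opens the ryanodine receptor, which releases far more calcium from the sarcoplasmic reticulum. Contraction ends when a calcium pump refills that store and an exchanger carries calcium out of the cell in return for sodium. The embryonic heart already beats at this stage of development.

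Over the 6 windows together, which span 1.56 Mb, the *Tdg* null hearts stood apart from the other *Tdg* null tissues. The heart of pair_a had 424 peaks over 26.4% of the windows, against 8.09% of its genome, and the heart of pair_b had 297 peaks over 14.7%, against 3.64% of its genome. The windows were thus 3.26 and 4.03 times as covered as the genome in the same heart library. In the *Tdg* null hindbrains this ratio was 1.51, 1.51, 1.60 and 1.54, with 101 to 131 peaks, in the carcasses 1.53 and 1.59, with 150 and 213 peaks, and in the liver of pair_a 1.96, with 118 peaks. All 7 of these ratios lay below those of both hearts. In WT embryos the windows held 1, 4, 17 and 1 peaks in hindbrain, 7 and 2 in heart, 13 and 2 in liver, and 28 and 26 in carcass. Every *Tdg* null library that was kept had a peak in each of the 6 windows. Since each tissue is a mixture of cells, more cells that carry 5fC at a gene and more 5fC per cell cannot be told apart.

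**Figure D1:**
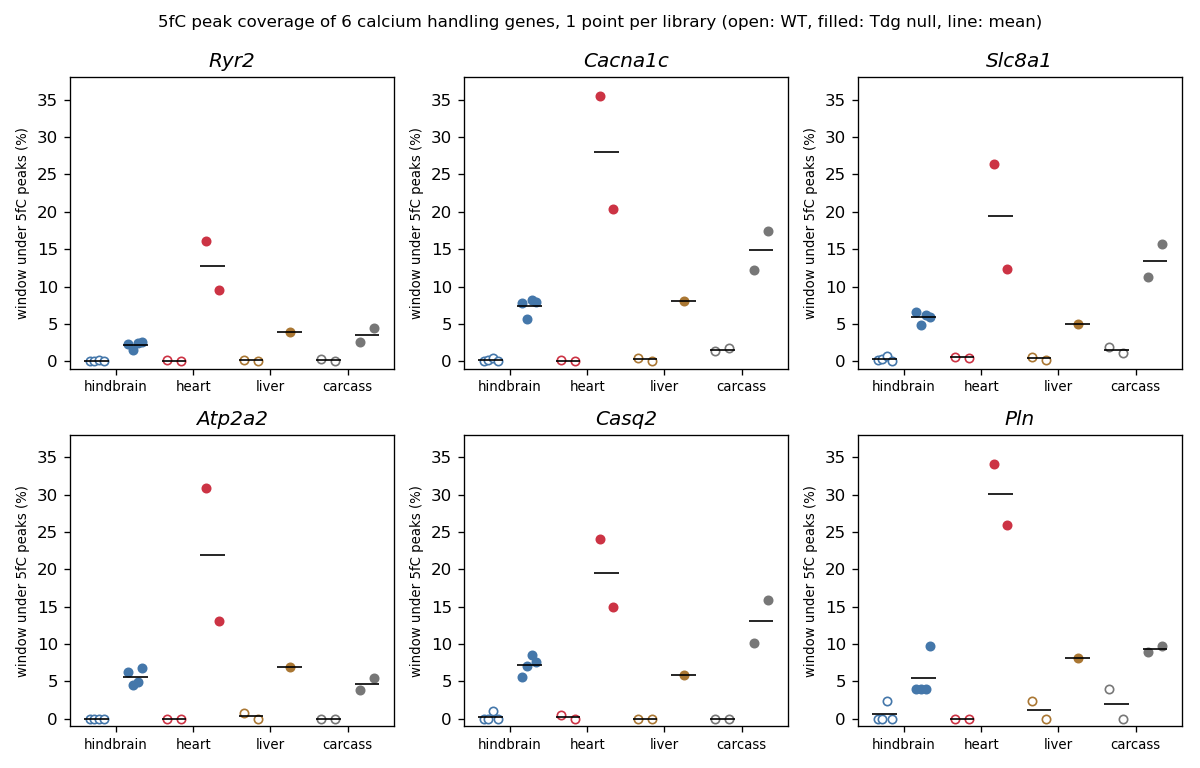
Percent of each gene's window under 5fC peaks (vertical axis), 1 point per library, by tissue, with WT open, *Tdg* null filled and a line at the group mean. The *Tdg* null hearts range from 9.48% of *Ryr2* to 35.5% of *Cacna1c*, and the highest WT value is 4.06%, in the carcass of pair_a at *Pln*.

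To compare libraries with unlike numbers of peaks, the coverage of a window was divided by the coverage of the genome in the same library and given as a log2 ratio (0.1 percentage points were added to both). By this ratio both *Tdg* null hearts lay above all 7 other *Tdg* null libraries for each of the 6 genes, as they did for 19.3% of the 18197 protein-coding genes with a peak in a *Tdg* null library and for 24.7% of the 9307 such genes of at least 20 kb. By percent covered alone, without the division, the count was 4 of 6 (*Ryr2*, *Cacna1c*, *Atp2a2* and *Pln*), against 22.3% of genes. By peak number in place of covered bases it was 5 of 6, without *Casq2*, whose difference between hearts and other tissues fell from 0.78 to 0.18. The share of all genes was not counted by peak number, so this count has no background. None of the 6 genes (0, against 6.53% of all genes) had both hearts below the other 7 libraries. The difference between the mean of the hearts and the mean of the other tissues had a median of 1.23 over the 6 genes, on the log2 scale, and of 0.53 over all genes. The choice of the genes used these values, and nothing is read from the counts.

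*Cacna1c*, which encodes the pore of the L-type calcium channel, lies on the minus strand of chromosome 6 at chr6:118542314-119146249 and spans 604 kb. Its window carried more peaks than those of the other 5 genes in every *Tdg* null library. Peaks numbered 194 and 140 in the hearts of pair_a and pair_b, 80 and 114 in the carcasses, 54 in the liver, and 55, 50, 69 and 56 in the hindbrains, whose litters are given in the order A, O, Q, Z throughout. They covered 35.5% and 20.3% of the window in the hearts (27.9% ± 10.7, SD, n = 2), 12.2% and 17.5% in the carcasses, 8.08% in the liver, and 7.78%, 5.64%, 8.19% and 7.93% in the hindbrains (7.39% ± 1.17, SD, n = 4). The lower heart thus lay above the higher carcass by a small margin on this scale. On the log2 ratio to the genome the hearts reached 2.12 and 2.45, and the other 7 libraries lay close together between 1.05 and 1.38. In WT embryos the carcasses had the most peaks, 14 and 18 over 1.35% and 1.74% of the window, and 1 WT heart had a single peak of 1000 bases. The window also takes in part of *Dcp1b*, a gene for a cofactor of mRNA decapping on the opposite strand. Without those bases and the 2 kb next to them, the hearts were covered to 34.2% and 19.2%. A gene model of 101 bases for the small nuclear RNA *U6* also lies in the window.
The stretch of *Cacna1c* found under peaks of both hearts and of no other *Tdg* null library that is widest (1600 bases, 37 CpGs) lies in an intron 383 kb from the gene's start. A stretch of 800 bases under peaks of all 9 *Tdg* null libraries lies in an intron 368 kb from the start and also meets a WT hindbrain peak. The 30 bases of each with the most CpGs are shown to set a heart-only stretch beside a shared one, on the plus strand with CpGs in capitals.
Cacna1c heart only, chr6:118763660-118763689: tgCGgcagCGttgaacatgcatcttcCGtg
Cacna1c shared by 9 libraries, chr6:118777708-118777737: atagaagtCGaaCGgtttgctctggaccat

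*Ryr2*, the cardiac ryanodine receptor, through which the store releases calcium, lies on the minus strand at chr13:11645370-12199212 and spans 554 kb with 105 exons. It was the least covered of the 6 genes in all 9 *Tdg* null libraries. Peaks numbered 101 and 79 in the hearts, 34 in the liver, 22 and 36 in the carcasses, and 22, 18, 22 and 22 in the hindbrains. Coverage was 16.1% and 9.48% in the hearts (12.8% ± 4.66, SD, n = 2), 3.91% in the liver, 2.58% and 4.45% in the carcasses, and 2.26%, 1.52%, 2.40% and 2.60% in the hindbrains. No hindbrain, liver or carcass value reached the lower heart. On the log2 scale *Ryr2* was above the genome in the hearts (0.98 and 1.36) and in the liver (0.36), and below it in the hindbrains (−0.65, −0.77, −0.53 and −0.48) and the carcasses (−1.03 and −0.75). Of bases under both hearts, 58.2% were under no other *Tdg* null library, against 31.2% over the genome. This share rests on the coverage known at the choice.
The widest heart-only stretch of *Ryr2*, of 1700 bases, lies in an intron 6.86 kb from the gene's start, and a stretch of 500 bases in an intron 180 kb from the start was under peaks of all 9 *Tdg* null libraries. Their 30 bases with the most CpGs (the middle such run where several tie) are shown as above.
Ryr2 heart only, chr13:12191700-12191729: agagcaagtCGaccaacatCGaacaagggt
Ryr2 shared by 9 libraries, chr13:12019026-12019055: gcactctggctagaCGctccaacacttagt

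Along *Ryr2* peaks were densest towards the gene's start, in the hearts and, at lower levels, in most other libraries. Divided into 10 equal parts from the start, the gene was covered to 60.3% and 38.7% in the first 2 parts in the heart of pair_a, falling to 14.4% in the fourth, and to 32.1%, 24.0% and 6.32% in the same parts in the heart of pair_b. In later parts neither heart passed 9.03%. The first part of the gene was covered to 13.2% in the liver, 7.40% and 11.7% in the carcasses, and 6.86%, 2.53%, 6.50% and 7.58% in the hindbrains. It was the most covered part in every *Tdg* null library except the hindbrain of litter O, where the fourth reached 3.25%. The mean of the hindbrains was 5.87% in the first part and 1.81% in the rest. The mean of the hearts was 46.2% in the first part and 9.15% in the rest of the gene, a difference of 37.0 percentage points. Among 2399 protein-coding genes of at least 100 kb, 99.7% had a smaller difference in the hearts, and the median was −0.19 points. *Cacna1c* (0.887 points) and *Slc8a1* (−1.81 points) showed no such slope from the first part to the rest, and *Cacna1c* was lowest in its last parts, with 10.4% and 4.14% in the tenth. In the 3 shorter genes, which that comparison leaves out, the first part was covered in the hearts to 65.4% and 36.6% (*Atp2a2*), 42.6% and 29.3% (*Casq2*) and 73.2% and 61.2% (*Pln*). For *Atp2a2* it was also covered to 20.6%, 18.5%, 16.4% and 20.6% in the hindbrains, 22.6% in the liver, and 0% and 28.8% in the carcasses. This measure was picked after the positions had been seen, so its place among genes is a description.

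**Figure D2:**
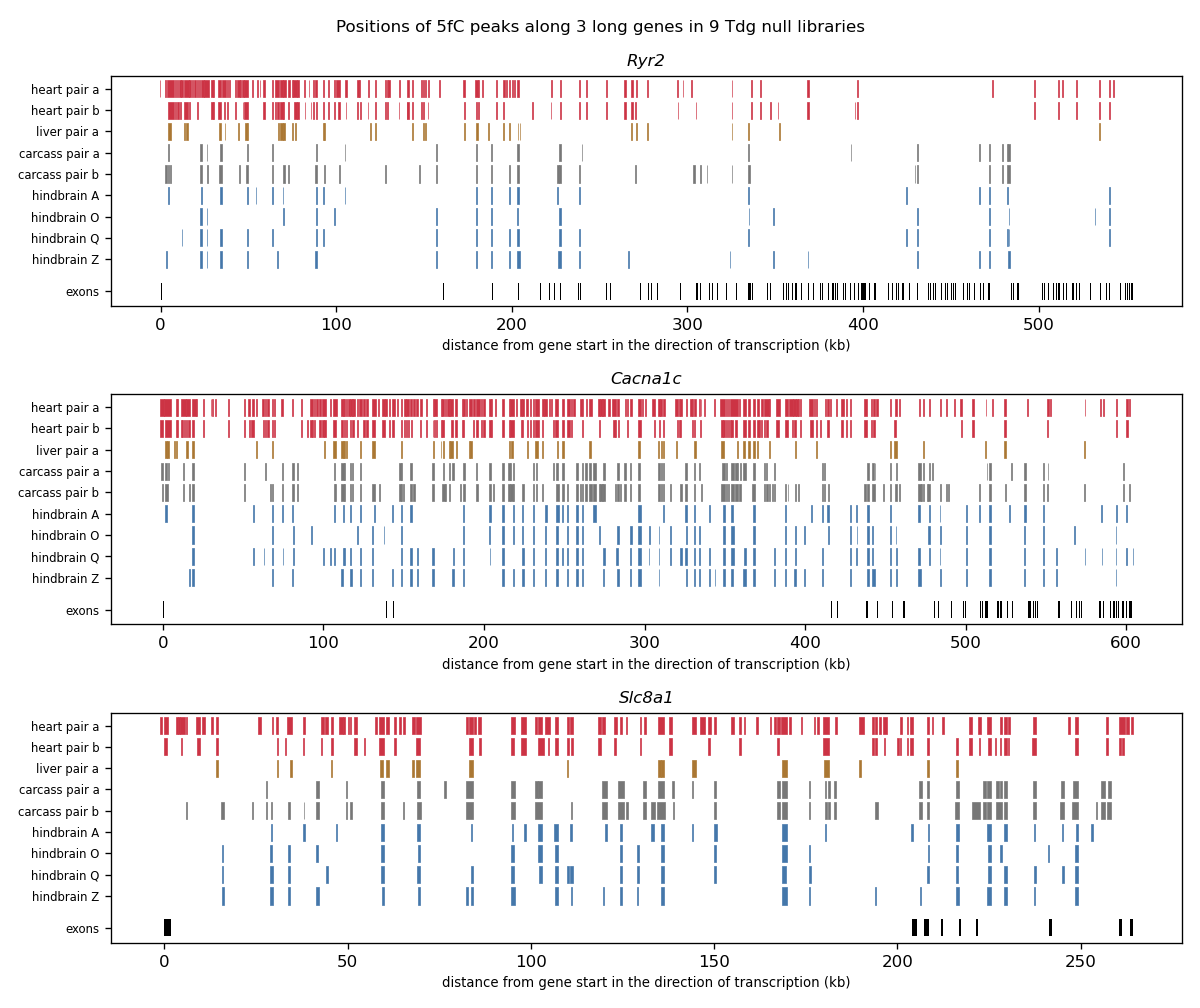
Positions of 5fC peaks (coloured bars, 1 row per *Tdg* null library) and exons (black) along *Ryr2*, *Cacna1c* and *Slc8a1*, by distance from the gene's start in kb. The heart peaks of *Ryr2* (101 and 79) lie densest near the start, while those of *Cacna1c* (194 and 140) and *Slc8a1* (97 and 53) run along the gene.

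**Figure D3:**
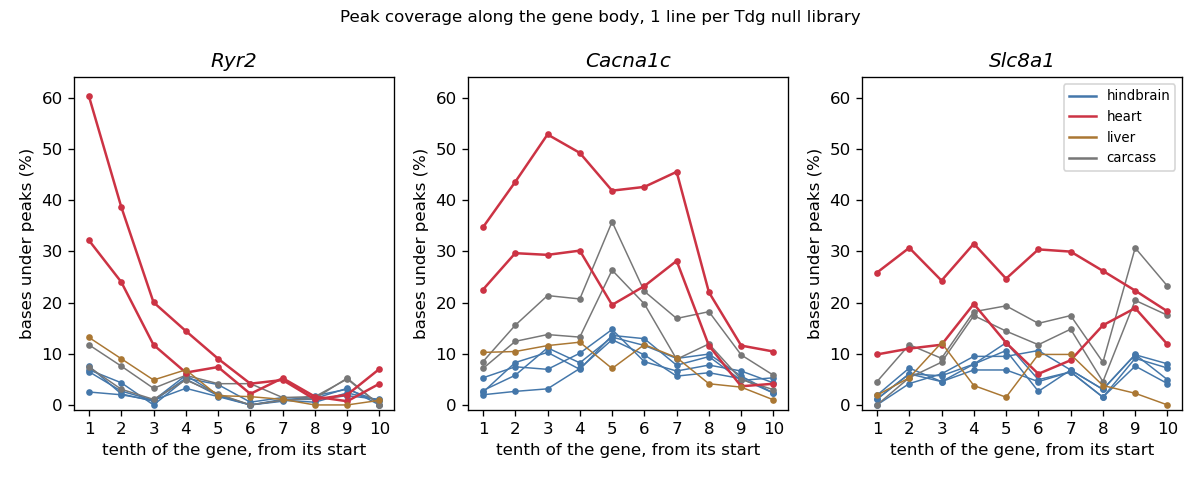
Percent of bases under peaks (vertical axis) in each of 10 equal parts of *Ryr2*, *Cacna1c* and *Slc8a1*, from the gene's start, with 1 line per *Tdg* null library. In *Ryr2* the heart lines fall from 60.3% and 32.1% in the first part to 7.04% and 4.15% in the last.

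*Casq2*, cardiac calsequestrin, binds calcium inside the store and lies on the plus strand at chr3:101890338-101950437. It had 11 and 9 peaks in the hearts, 7 and 11 in the carcasses, 5 in the liver, and 4, 7, 8 and 7 in the hindbrains. Coverage was 24.0% and 15.0% in the hearts, 10.1% and 15.9% in the carcasses, 5.93% in the liver, and 5.62%, 7.02%, 8.58% and 7.64% in the hindbrains. Heart and carcass overlapped on this scale, since the carcass of pair_b lay above the heart of pair_b. On the log2 ratio the hearts (1.56 and 2.01) lay above the carcasses (0.90 and 1.07), and the highest of the other libraries was a hindbrain at 1.36. Heart peaks were wide, with a median of 1500 and 1200 bases, against 500 to 800 in the other tissues. In WT embryos the gene had 1 peak in a hindbrain and 1 in a heart. The widest heart-only stretch, of 700 bases with 13 CpGs, lies upstream of the gene, centred 1.19 kb before its start, and is shown because it is next to the promoter.
Casq2 heart only, chr3:101889338-101889367: aatggaCGaattattataaCGccCGttcca

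*Atp2a2* encodes SERCA2, the pump that returns calcium to the store, and lies on the minus strand at chr5:122903531-122952183. Its coverage was 30.9% and 13.0% in the hearts (16 and 10 peaks), 6.97% in the liver (6 peaks), 3.80% and 5.51% in the carcasses (4 peaks each), and 6.27%, 4.56%, 4.94% and 6.84% in the hindbrains (5, 4, 5 and 5 peaks). Both hearts were above every other *Tdg* null library. On the log2 ratio the hearts were at 1.92 and 1.81, the liver stood at 1.17, the hindbrains at 0.48 to 0.88, and the carcasses fell below the genome (−0.49 and −0.45). The 4 hindbrains thus lay above both carcasses, as they did for 37.4% of genes, and *Atp2a2* was the sole gene of the 6 with that order. WT embryos had 1 peak here, in the liver of pair_a. The first 500 bases on either side of the gene's start held 158 CpGs and no peak of any of the 19 libraries, and the nearest base under both hearts lay 1483 bases into the gene. The widest heart-only stretch, of 1200 bases, is intronic, 3.88 kb from the start.
Atp2a2 heart only, chr5:122947741-122947770: aagaacctgCGtatacaacCGtgatattcc

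*Pln*, phospholamban, restrains the SERCA2 pump until it is phosphorylated, and is the shortest of the 6 genes, at chr10:53057492-53065805 on the plus strand. The hearts had 5 and 6 peaks over 34.1% and 26.0% of the window (30.1% ± 5.77, SD, n = 2). The liver had 1 peak over 8.12%, the carcasses 1 each over 8.93% and 9.75%, and the hindbrains 1, 1, 1 and 2 over 4.06%, 4.06%, 4.06% and 9.75%. The hearts were thus well apart from the other tissues, but the values of the other tissues rest on 1 or 2 peaks. That peak was a shared one: a stretch of 500 bases in the last exon was under peaks of all 9 *Tdg* null libraries and of 3 WT libraries. The hearts added peaks over the gene's start and over the second exon, where no other *Tdg* null library had any. The whole window lies inside the gene model *Gm9766* on the opposite strand, and a smaller model on that strand, *Gm10942*, overlaps the second exon. A pull-down of DNA does not tell strands apart. The widest heart-only stretch, of 900 bases, holds the second exon and intron beside it, and the part shown is intronic.
Pln heart only, chr10:53062089-53062118: gaaattCGcctgcctctgcctccCGactgt

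*Slc8a1* encodes NCX1, the exchanger that carries calcium out of the cell, and lies on the minus strand at chr17:81785359-82048947. Peaks numbered 97 and 53 in the hearts, 36 and 47 in the carcasses, 18 in the liver, and 28, 21, 26 and 24 in the hindbrains. Coverage was 26.4% and 12.4% in the hearts, 11.3% and 15.6% in the carcasses, 4.97% in the liver, and 6.65%, 4.90%, 6.13% and 5.87% in the hindbrains. The carcass of pair_b lay above the heart of pair_b, so that heart and carcass overlapped on this scale. On the log2 ratio the hearts were at 1.69 and 1.74, the carcasses at 1.05 and 1.04, the liver at 0.70 and the hindbrains at 0.66 to 0.87. The carcasses lay above all 4 hindbrains here, as for 10.3% of genes, and *Slc8a1* was the sole gene of the 6 with that order.
In WT embryos *Slc8a1* had 9 peaks in the hindbrains, 6 of the 9 WT heart peaks of the 6 windows, 5 in the livers and 15 in the carcasses. An intronic stretch of 300 bases with 8 CpGs, 169 kb from the start and picked out after its values were seen, was under a peak in 9 of the 10 WT libraries (not the hindbrain of litter Z) and in 8 of the 9 *Tdg* null libraries (not the heart of pair_b). A heart-only stretch of 900 bases, 220 kb from the start, was also touched by a peak of the WT heart of pair_a. A further intronic peak, of 400 bases in 1 WT heart and 200 in the other, overlaps peaks of 8 *Tdg* null libraries and reaches into *Gm11096*, a gene model of 676 bases on the opposite strand at chr17:81840588-81841263. The first 2 stretches are shown, with a stretch under peaks of all 9 *Tdg* null libraries, as examples of a stretch that recurs in WT, one that is the hearts' own and one that all *Tdg* null tissues share.
Slc8a1 recurrent in WT, chr17:81879718-81879747: tCGcacagaggttggtaggccctagctCGt
Slc8a1 heart only, chr17:81828893-81828922: agggCGgtgacCGctcagcttgtctCGtat
Slc8a1 shared by 9 libraries, chr17:81979501-81979530: ctggatggtctCGgagcCGtttctcctcag

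WT and *Tdg* null hindbrains did not overlap for any of the 6 genes: coverage was higher in all 4 *Tdg* null than in all 4 WT libraries for each, as it was for 66.9% of the 16332 genes with a peak in a hindbrain library. WT hindbrain coverage was 0% for *Atp2a2* in all 4 litters. For *Ryr2*, *Casq2* and *Pln* it was 0% in 3 litters and 0.161%, 1.09% and 2.44% in litter Q. *Cacna1c* reached 0%, 0.132%, 0.461% and 0.0493%, and *Slc8a1* 0.149%, 0.299%, 0.747% and 0%. With peaks of at least 600 bp alone 5 of the 6 genes were apart, without *Pln*, which has 1 peak of 500 bases in 3 of the *Tdg* null hindbrains. The share of all genes was not counted with these peaks. Litter Q, with the most WT hindbrain peaks in the genome (21606), was the highest of the WT hindbrains for each gene with a peak. Within litters, the *Tdg* null hindbrain exceeded the WT hindbrain by 1.52 to 2.60 percentage points for *Ryr2* and by 5.51 to 7.88 for *Cacna1c*. In heart the WT values were 0.635% and 0.448% for *Slc8a1*, 0.125% and 0% for *Ryr2*, 0.164% and 0% for *Cacna1c*, 0.468% and 0% for *Casq2*, and 0% for *Atp2a2* and *Pln* in both.
Of the 101 WT peaks in the 6 windows, 67 overlapped a *Tdg* null peak in the matching tissue and litter (none could for the 2 peaks of the WT liver of pair_b), and 99 overlapped one in any *Tdg* null library. All 9 WT heart peaks overlapped a *Tdg* null peak, 7 of them in the heart of the same pair. Outside hindbrain, the counts by litter rest on the assumed match of embryos within pair_a and pair_b. Apart from those of *Slc8a1*, the WT heart peaks lay over 700 bases of exon and intron of *Ryr2* (22 CpGs), 1000 intronic bases of *Cacna1c* (12 CpGs) and 300 intronic bases of *Casq2* (3 CpGs). The *Tdg* null liver of pair_b, given apart, had 1 peak of 300 bases in *Ryr2* and 1 of 200 bases in *Cacna1c*.

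Heart peaks were partly the hearts' own and partly shared. Of the bases under both hearts, the share under no other *Tdg* null library was 60.0% in *Pln*, 58.2% in *Ryr2*, 47.1% in *Slc8a1*, 44.0% in *Cacna1c*, 43.7% in *Atp2a2* and 34.4% in *Casq2*, each above the 31.2% of the genome. The bases covered in both hearts, as a share of those covered in either, came to 68.1% in *Pln*, 62.3% in *Casq2*, 54.6% in *Cacna1c*, 53.7% in *Ryr2*, 42.2% in *Atp2a2* and 41.8% in *Slc8a1*, against 41.5% in the genome. Bases under all 9 *Tdg* null libraries amounted to 4900 in *Cacna1c* (7 stretches), 800 in *Slc8a1* (2 stretches) and 500 each in *Ryr2* and *Pln*. In *Atp2a2* and *Casq2* no base was shared by more than 8 of the 9. Of the liver bases under peaks, 68.8% in *Ryr2*, 68.4% in *Cacna1c*, 80.9% in *Atp2a2* and 84.2% in *Casq2* were also under both hearts, against 48.1% in the genome and 47.4% in *Slc8a1*. The single liver peak of *Pln* lay wholly under both. Bases under all 4 hindbrains were also under both hearts to 30.3% in *Ryr2*, 60.4% in *Cacna1c*, 50.7% in *Slc8a1*, 21.1% in *Atp2a2*, 62.5% in *Casq2* and 100% in *Pln*, against 35.6% in the genome. For bases under both carcasses the shares were 40.0%, 46.9%, 32.3%, 0%, 48.3% and 90.9% in the same order, against 26.3%. *Atp2a2* was thus below the genome on both, and *Ryr2* on the hindbrain share. Overlap with heart peaks tends to be larger where the hearts cover more of a window. The choice of the genes used that coverage, so nothing is read from these shares against the genome. The liver and the heart of pair_a came from the same embryo. The second widest heart-only stretches spanned 1300 bases in *Cacna1c*, 1200 in *Ryr2*, 900 in *Slc8a1*, 800 in *Atp2a2*, 700 in *Casq2* and 500 in *Pln*, the last over the gene's start.
Gene starts differed. Within 500 bases of the start, *Ryr2* (80 CpGs) had a peak in 1 *Tdg* null library, the heart of pair_a, and *Atp2a2* (158 CpGs) in none. *Slc8a1* (15 CpGs) and *Pln* (7 CpGs) had one in the hearts and in no other library, *Cacna1c* (17 CpGs) in the hearts and carcasses, and *Casq2* (22 CpGs) in 6 of the 9 *Tdg* null libraries. No WT library had a peak at any of these starts.
Letters bound by heart transcription factors were counted in the 267 stretches under both hearts in the 6 windows, on both strands, beside the 114585 stretches under both hearts in the genome, weighted to the same length classes. None of these runs of letters holds another. GATAAG, bound by the GATA family, was in 32.2% of the former and 33.7% of the latter, AGGTGT (T-box factors) in 39.0% and 34.1%, TCAAGTG (NKX2-5) in 15.4% and 13.3%, and GGAATG (TEAD factors) in 40.4% and 40.7%. A match is a run of letters and not a bound site.

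Relatives of the 6 genes, some of them also used in the heart, give the comparison within each family. Both hearts lay above the 7 other *Tdg* null libraries for 5 of the 10 relatives with a peak (*Cacna1s*, *Cacna1d*, *Atp2a1*, *Atp2a3* and *Sln*), beside the same 19.3% of genes. The difference between hearts and other tissues had a median of 0.74 over the 11 relatives, on the log2 scale.
Among ryanodine receptors, *Ryr1* of skeletal muscle was at −0.62 and −1.53 in the hearts and at 0.44 to 1.06 in the hindbrains, so that hindbrain and heart stood in the reverse order of *Ryr2*. *Ryr3*, found in brain and other tissues, was at −1.24 and −1.56 in the hearts and at −0.44 to −0.34 in the hindbrains. Among the exchangers, *Slc8a2* of brain was at −0.21 and −0.31 in the hearts and at 0.79 to 1.66 in the hindbrains, and *Slc8a3* at −0.54 and −0.30 in the hearts and −0.25 to 0.37 in the hindbrains. These 4 relatives were therefore below the genome in both hearts, where their cardiac family member was above it.
Among channel genes, *Cacna1d*, a pore of pacemaker and nerve cells, was at 1.20 and 1.43 in the hearts and at most 0.95 elsewhere, and *Cacna1s* of skeletal muscle at 1.52 and 1.33 in the hearts and at most 0.98 elsewhere. *Cacna1f*, a retinal channel gene on the X chromosome, had no peak in any *Tdg* null library. Among the pumps, *Atp2a1* (SERCA1 of fast muscle) had 5 and 3 peaks in the hearts, 1 in a hindbrain, 1 and 2 in the carcasses and none in the liver. *Casq1*, skeletal calsequestrin, was high in every tissue, at 2.86 and 3.53 in the hearts, 3.13 in the liver and 2.24 to 2.80 in the other libraries. *Atp2a3* (SERCA3) was at 1.30 and 0.80 in the hearts and at most 0.53 elsewhere. *Sln*, sarcolipin, a small inhibitor of the pump, was at 0.96 and 1.10 in the hearts on 2 and 1 peaks, and at most 0.86 elsewhere.
Of 31 other calcium handling genes, 30 had a peak in a *Tdg* null library and 13 were above the other tissues in both hearts, beside the same 19.3% of all genes (24.7% of those of at least 20 kb). Their median difference was 0.66, against 0.53 over all genes. The highest mean heart values were those of *Jph2* (3.50), junctophilin, which holds the surface membrane and the store together, *Calm3* (2.81), a calmodulin gene, and *Cacna1h* (2.35), a T-type calcium channel gene. *Jph2* was covered to 72.8% and 53.9% in the hearts. The lowest were *Fkbp1b*, a partner of the ryanodine receptor, and *Hrc*, a calcium-binding protein of the store, neither with a heart peak, and *Trdn* (−2.42), triadin, which joins calsequestrin to the receptor.

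**Figure D4:**
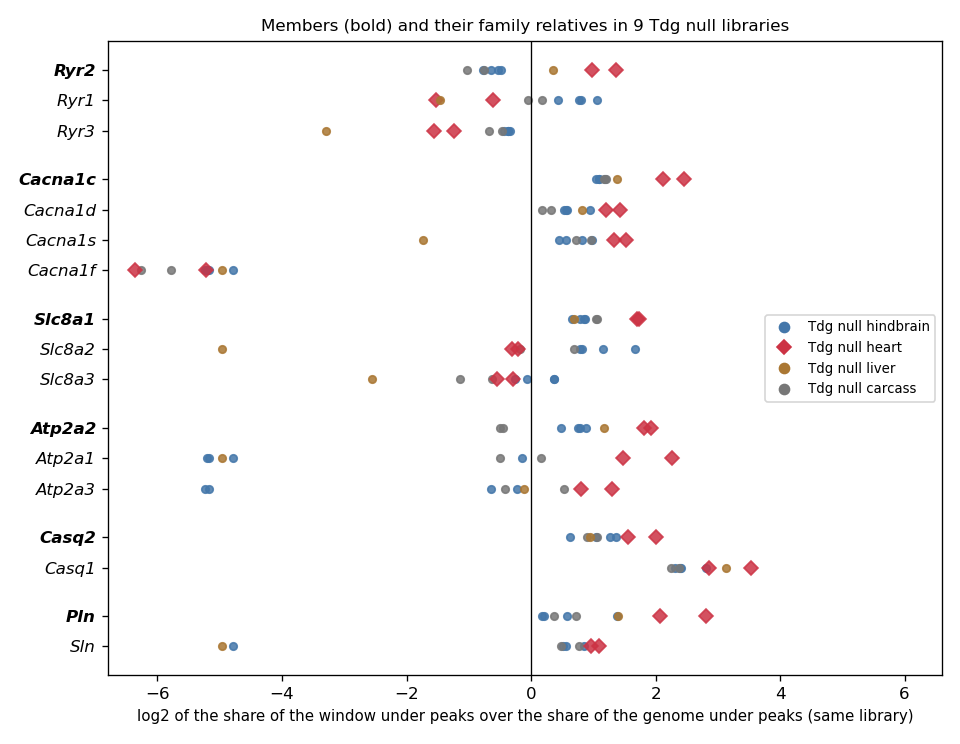
Log2 ratio of a window's coverage to the genome's coverage in the same library (horizontal axis) for the 6 genes (bold) and 11 relatives in 9 *Tdg* null libraries, with hearts as diamonds. Both diamonds lie to the right of the other points for each gene in bold, from 0.98 in *Ryr2* to 2.80 in *Pln*, and below 0 for *Ryr1*, *Ryr3*, *Slc8a2*, *Slc8a3* and *Cacna1f*, the last with no peak in any library.

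Genes of at least 20 kb whose log2 ratios over the 9 *Tdg* null libraries ran closest to *Ryr2* were *Slc31a1* (a copper transporter, Pearson's r = 0.993), *Aak1* (r = 0.992) and *Mical2* (r = 0.988), of 9307 compared. Closest to the mean of the 6 genes were *Gfod1* (r = 0.995), *Fars2* (r = 0.993) and *Osbp* (r = 0.985). All genes share these 9 libraries, 2 of them hearts and 4 hindbrains, and r is given as a description.

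Within the windows, peaks of *Tdg* null embryos lay on bases richer in CpG for 5 of the 6 genes. The density of CpGs under peaks was divided by that outside peaks in the same window, the tissues of a litter were averaged, and the log2 ratio of 6 litters was set against 0 (limma, Benjamini-Hochberg adjustment over 11151 genes). At an adjusted p threshold of 0.05 the ratio was called above 0 for 76.2% of genes and below 0 for 8.47%, so 5 of 6 is near the background. *Pln* had the highest ratio, 1.45 ± 0.073 (SE, n = 6 litters, limma adjusted p = 1.73e-06), with litters from 1.23 to 1.62. Litters A, O and Q have the same value for *Pln*, from the same 500 bases with 10 CpGs, and *Pln* has no value with at least 1000 covered bases. *Ryr2* followed at 0.98 ± 0.039 (limma adjusted p = 8.4e-07), from 14.8, 14.8, 15.1 and 13.9 CpGs per kb under peaks in the hindbrains against 7.26 to 7.34 outside. In the hearts *Ryr2* had 11.5 and 13.0 CpGs per kb under peaks, lower than in the hindbrains. *Slc8a1* was at 0.81 ± 0.033 (limma adjusted p = 8.62e-07), *Casq2* at 0.69 ± 0.051 (limma adjusted p = 9.53e-06) and *Cacna1c* at 0.51 ± 0.035 (limma adjusted p = 6.1e-06). *Atp2a2* did not pass, at 0.09 ± 0.068 (limma adjusted p = 0.272), with litters from −0.09 to 0.43. In the hearts its peaks had 12.3 and 11.6 CpGs per kb, against 14.0 and 13.8 outside them, and in the liver 11.4 against 13.7. *Atp2a2* passed without the flanks (0.17, limma adjusted p = 0.026) and with introns alone (0.20, limma adjusted p = 0.0312). Of the 6 litter values, 4 are hindbrain alone, 1 averages heart, liver and carcass, and 1 averages heart and carcass, so their spread, on which the p-values rest, mixes tissue with embryo. If pair_a and pair_b were pairs of 1 litter, the litters would number 5.

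The share of peak bases in exons, relative to the share of the window in exons, divided the genes. At the same threshold it was called above 0 on the log2 scale for *Pln* (1.46 ± 0.19, SE, n = 6 litters, limma adjusted p = 0.000599), *Casq2* (1.26 ± 0.26, limma adjusted p = 0.00572) and *Ryr2* (0.51 ± 0.15, limma adjusted p = 0.0236), beside 24.2% of genes. It was called below 0 for *Slc8a1* (−1.44 ± 0.32, limma adjusted p = 0.00763) and *Cacna1c* (−1.01 ± 0.21, limma adjusted p = 0.00497), beside 33.2% of genes, and not past the threshold for *Atp2a2* (−0.20 ± 0.43, limma adjusted p = 0.717). The value of *Pln* rests in 3 hindbrains on 1 peak of 500 bases that lies wholly in the last exon. Outside the hearts, all exon bases of *Pln* under *Tdg* null peaks lay in that exon. Its ratio was 0.04 and 0.70 in the hearts, against 1.24 to 1.87 in the other *Tdg* null libraries. Exons made up 20.8% and 33.6% of its peak bases in the hearts, against 20.1% of the window. The call of *Ryr2* was lost with peaks of at least 600 bp alone (−0.47, limma adjusted p = 0.284). It was also lost without litter A (0.51, limma adjusted p = 0.0546), O (0.42, limma adjusted p = 0.063) or Q (0.46, limma adjusted p = 0.0718). By tissue its ratio was 0.40 to 0.97 in the hindbrains, 0.67 and 0.68 in the carcasses, −0.40 and 0.15 in the hearts and −0.25 in the liver.
The tissues of *Slc8a1* went apart in this measure. Exon bases under peaks numbered 1384 and 1184 in the hearts, 107, 0, 0 and 0 in the hindbrains, 0 and 114 in the carcasses and 0 in the liver. In the libraries with 0 the ratio is set by the covered length and the 50 exon bases added before the log, and the size of −1.44 depends on that number. Exons make up 1.15% of the window, and made up 1.96% and 3.58% of the peak bases in the hearts. The first exon of the annotation, of 1799 bases, was under 900 and 700 bases of heart peaks and under no other *Tdg* null peak, and an exon of 377 bases near the end of the gene was wholly under both hearts and no other *Tdg* null library. These exons were picked out after the values had been seen.
Of the 105 exons of *Ryr2*, 17 were under a *Tdg* null peak and 7 under peaks of both hearts. Of the 53 of *Cacna1c*, 18 were under a *Tdg* null peak and 5 under both hearts. Most peaks of these long genes lay in introns, as most of the window does: exons held 2.45% and 3.63% of peak bases in the hearts for *Ryr2* and 1.32% and 0.935% for *Cacna1c*.

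**Figure D5:**
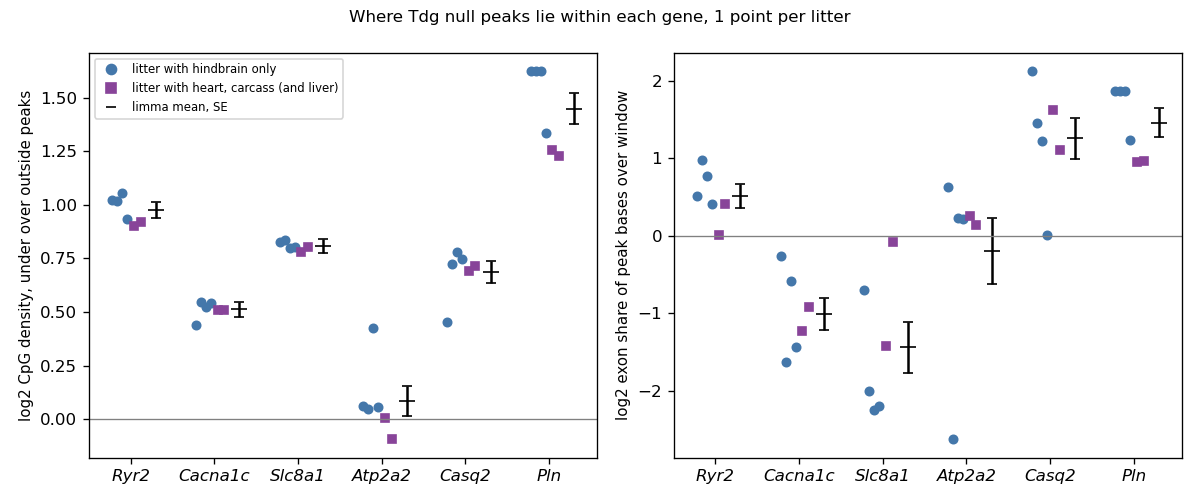
Log2 ratio of CpG density under peaks to that outside peaks (left) and of the exon share of peak bases to that of the window (right), 1 point per litter, with the limma mean and SE beside them. On the left 5 genes lie above 0 in every litter, from 0.44 in *Cacna1c* to 1.62 in *Pln*, and *Atp2a2* lies across 0, while on the right *Slc8a1* and *Cacna1c* lie below 0 in every litter.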

How the data were processed

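Per the authors' methods, reads were trimmed with trim_galore 0.4.1, aligned to NCBIM37 (mm9) with Bowtie2 2.2.6, converted with samtools 0.1.18, and peaks were called per library with MACS in SeqMonk (p value 1e-05, fragment size 200 bp). Whether an input library was used in peak calling is not given in the sources used here. The peak files used here, deposited by the authors, hold another kind of value than counts: peak starts and ends in steps of 100 bp, without heights. The reads were not analysed here, so the depth behind a peak is not known here.

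Here peaks of 21 assembled chromosomes were overlapped with windows from the GENCODE annotation of NCBIM37 (4 mitochondrial peaks were left out) in Python 3.11.15 with numpy 2.4.6. Within-gene ratios were tested with limma 3.58.1 in R 4.3.3 (adjusted p threshold 0.05), with at least 500 covered bases per library, 0.5 CpG or 50 exon bases added, and a value in at least 5 of 6 litters. The script was tested on simulated data with 200 changed genes. Litters A, O, Q and Z were taken from the sample titles, with 1 WT and 1 *Tdg* null embryo in each. The match of WT to *Tdg* null embryos within pair_a and pair_b is not in the titles and was assumed. Whether pair_a and pair_b are separate litters is uncertain, so n = 6 may overstate the litters. Printed sequences were read from the NCBIM37 genome. Figures used matplotlib 3.10.9.

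The genes, their relatives and lists were chosen with earlier results of these data known. Named were the 6 genes, 11 relatives, the 3 highest and 3 lowest by heart ratio of 31 other calcium genes, overlapping genes, and the 3 genes most like *Ryr2* and the mean of the 6. Regions named were the 2 widest heart-only stretches per gene, the stretch under the most *Tdg* null libraries, and WT heart peaks. Alternatives were peaks of at least 600 bp, merging within 200 bp, other flanks and pseudocounts, peak numbers, the 100000 longest peaks, other units of replication, and each library or litter left out.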

Additional observations from a re-analysis of the deposited data

Results flagged for a closer look

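Of 31 groups of 4 to 6 values looked at, 10 had a value far from the others. Chance alone marks about 1 in 20 such groups where values do not tie. In WT hindbrain for *Ryr2*, *Casq2* and *Pln*, and in *Tdg* null hindbrain for *Pln*, the other 3 values were equal. Such a tie fixes the mark whatever the size of the remaining value, so the 10 cannot be set against that rate. In WT hindbrain litter Q lay above the other 3 litters for *Ryr2* (0.161% covered), *Casq2* (1.09%) and *Pln* (2.44%), each of which had 0% in the others. In *Tdg* null hindbrain litter O was the lowest for *Cacna1c* (5.64%) and for the 6 windows together (4.05%), and litter Z the highest for *Pln* (9.75%), with 2 peaks against 1. For the ratio of CpG density under peaks to that outside, litter A was the lowest of 6 for *Cacna1c* (0.44) and *Casq2* (0.45), and litter Q the highest for *Atp2a2* (0.43). For the exon ratio of *Atp2a2*, litter O stood at −2.63, with no exon base under its 4 peaks.

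In some genes every library of heart lay on one side of 0 and every library of another tissue on the other, on the log2 scale, and these differences were not tested. For *Slc8a1* the mean exon ratio of heart exceeded that of hindbrain by 2.92 and that of carcass by 3.47. These sizes depend on the 50 bases added before the log, since 3 of the 4 hindbrains and 1 of the 2 carcasses had no exon base of *Slc8a1* under a peak, against 1384 and 1184 in the hearts. For *Atp2a2* the heart CpG ratio minus that of hindbrain was −0.36 and minus that of carcass −0.46, and the heart exon ratio minus that of carcass was −0.51. The CpG ratio of *Atp2a2* in the *Tdg* null liver of pair_a was −0.239, beside −0.190 and −0.235 in the hearts.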

How the results depend on the processing

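The median difference of the 6 genes between *Tdg* null hearts and other tissues, 1.23 on the log2 scale, was 0.98 by peak number, 1.47 with the 100000 longest peaks of each library and 0.95 with flanks of 10 kb. It lay between 1.06 (without the heart of pair_b) and 1.44 (without the liver) with each library left out. By peak number *Casq2* fell to a difference of 0.18, and 5 of 6 genes had both hearts above the rest, a count with no share of all genes beside it. *Slc8a1* (0.87) fell to 0.49 and *Atp2a2* (1.39) rose to 2.52 with the longest peaks, *Atp2a2* fell to 0.78 with flanks of 10 kb, *Pln* (1.59) rose to 2.59 with peaks of at least 600 bp, and *Ryr2* (1.55) rose to 1.92 without the liver. The median hindbrain difference between genotypes, 5.62 points, was 4.26 with peaks of at least 600 bp, where 5 of 6 genes were apart and the share of all genes was not counted. As the replicate block, the mean of differences within litters, the median difference is 5.62 by arithmetic, with 1 library of each genotype per litter.

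Genes with fewer CpGs under peaks (944) numbered 488 with at least 1000 covered bases and 583 with introns alone, and genes with a lower exon share (3697) numbered 2274 with at least 1000 covered bases. Fewer genes could be tested there, 7652 with at least 1000 covered bases and 9711 with introns alone, against 11151. Without the replicate block, each library its own unit, limma called 8000 genes higher and 839 lower for CpG density, 2203 and 3338 for exon share, and lost *Ryr2* for exons (0.39, adjusted p = 0.0769). The genes with a higher exon share, 3 of 6, were 1 with peaks of at least 600 bp, where *Ryr2* turned to −0.47. Of all 9076 genes tested there, 2092 were called higher. With each litter left out, 2 to 3 of the 6 genes were called higher, beside 2340 to 2869 of all genes, with 11219 to 12043 tested. The exon ratio of *Atp2a2*, not called, turned to 0.061 without flanks and ranged from −0.36 to 0.29 with each litter left out. *Pln* had no value with at least 1000 bases, peaks of at least 600 bp or introns alone. The cause of the other shifts was not tested.

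Peak positions carry no height or depth. Each heart, liver and carcass value rests on 1 or 2 embryos per genotype, and the hearts differed in the number of peaks, 254319 and 126531.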
